A study of Mus musculus with 16 samples.

Results

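A set of 940 genomic regions in which 5-hydroxymethylcytosine (5hmC) signal was higher in mouse induced regulatory T cells (iTreg) cultured with retinoic acid (RA) and vitamin C (VitC) on top of TGFβ than in iTreg cultured with TGFβ alone is described here. The signal came from CMS-IP, in which bisulfite converts 5hmC to cytosine-5-methylenesulfonate (CMS) and serum against CMS precipitates the fragments that hold it. The members were chosen by CPM, the reads of a library in a region per 1000000 of its reads in all regions, on plain column sums: the mean of the pull-downs with RA and VitC was at least 10 CPM and at least 2 times the mean with TGFβ alone, and the lower RA+VitC replicate lay above the higher TGFβ replicate. They are 0.529% of the 177720 regions of the deposited table, and 4.66% of the 20157 regions that reached the minimum level with RA and VitC. Both shares were set by the rule, and the values of RA+VitC iTreg against TGFβ iTreg are therefore given as a description, with no test. The mirror rule, TGFβ iTreg over RA+VitC iTreg, took 1261 regions.

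The groups were RA+VitC iTreg (TGFβ, RA and VitC in the culture), TGFβ iTreg (TGFβ in the culture), Treg sorted as CD4+ eGFP+ cells, and naive T cells sorted as CD4+ eGFP- CD25- CD62L high CD44 low cells. Lymph nodes and spleen of Foxp3-eGFP reporter mice on the C57BL/6 strain, aged 5 to 6 weeks, were the source of all cells, and both kinds of iTreg were made from naive CD4 cells. Each of the 4 groups had 2 pull-down and 2 input libraries. RA and VitC were given together in every library that had either, so their effects cannot be told apart, and all cultured cells had TGFβ. Whether replicates came from different mice or cultures is not stated in the labels, so p-values measure only how far the libraries of a group spread, and this spread may be technical. In bulk DNA a larger share of cells with the mark and more of the mark per cell cannot be told apart.

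TET enzymes oxidise methylated cytosine, mostly at CG dinucleotides, to 5hmC, which is found over active enhancers and transcribed gene bodies and can be an intermediate on the way to unmodified cytosine. Vitamin C acts as a cofactor of TET enzymes and increases their activity in cultured cells. RA binds the nuclear receptors RAR and RXR, which sit on repeats of a short half-site, and RA made by gut dendritic cells favours iTreg formation and the receptors that guide T cells to the gut. Foxp3, the lineage factor of Treg, is kept stably expressed when its enhancers are demethylated.

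CG dinucleotides are where TET enzymes act, so the promoters of the 4 members with the highest RA+VitC level among those that overlap a promoter, and whose gene was found in the RefSeq promoter table, are given with their sequence. Each window runs 5′ to 3′ on the gene's strand from 250 bases before to 50 after the start. The windows are on build GRCm38.p6 and the regions on mm9. Capitals mark CG dinucleotides and AGGTCA, a form of the RAR/RXR half-site, or its reverse complement TGACCT. Neither AGGTCA nor TGACCT was found in any of the 4 windows. Sequences that differ from them at any base were not searched for, so other forms of the half-site may be present.
Gpr83 promoter (chr9:14859960-14860259, + strand): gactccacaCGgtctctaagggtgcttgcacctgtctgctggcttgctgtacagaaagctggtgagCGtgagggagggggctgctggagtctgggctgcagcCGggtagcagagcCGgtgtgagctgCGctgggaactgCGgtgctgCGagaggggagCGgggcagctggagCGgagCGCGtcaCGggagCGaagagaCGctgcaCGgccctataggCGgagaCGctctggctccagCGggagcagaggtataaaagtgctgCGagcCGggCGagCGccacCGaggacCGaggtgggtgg
Izumo1r promoter (chr9:14903718-14904017, - strand): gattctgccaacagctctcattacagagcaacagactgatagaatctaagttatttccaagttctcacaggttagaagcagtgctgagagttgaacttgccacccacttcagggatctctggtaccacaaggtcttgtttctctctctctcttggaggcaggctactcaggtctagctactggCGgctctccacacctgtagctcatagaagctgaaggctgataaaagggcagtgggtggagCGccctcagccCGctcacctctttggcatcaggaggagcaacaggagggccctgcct
Zbtb18 promoter (chr1:177442101-177442400, + strand): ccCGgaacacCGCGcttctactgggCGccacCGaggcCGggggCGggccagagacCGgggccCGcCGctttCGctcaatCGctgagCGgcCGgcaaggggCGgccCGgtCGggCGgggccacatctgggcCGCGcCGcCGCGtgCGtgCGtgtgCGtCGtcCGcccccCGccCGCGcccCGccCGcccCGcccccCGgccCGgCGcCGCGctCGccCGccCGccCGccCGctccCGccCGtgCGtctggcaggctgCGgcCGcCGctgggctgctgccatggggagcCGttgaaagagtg
Popdc2 promoter (chr16:38361940-38362239, + strand): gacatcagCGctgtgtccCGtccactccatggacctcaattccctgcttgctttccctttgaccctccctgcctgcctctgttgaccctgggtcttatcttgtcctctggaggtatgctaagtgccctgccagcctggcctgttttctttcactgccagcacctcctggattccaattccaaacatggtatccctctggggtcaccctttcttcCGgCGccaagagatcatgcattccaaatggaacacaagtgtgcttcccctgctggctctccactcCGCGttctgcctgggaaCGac

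The Zbtb18 window, the first of its 5 in the table, held 51 CG dinucleotides, more than 99.3% of all windows of the table. The Gpr83 window held 24 (more than 80.0% of windows), the Popdc2 window 7 (47.9%) and the Izumo1r window 3 (23.3%), so the 4 promoters ranged from CG-rich to CG-poor. Gpr83, an orphan receptor found on Treg, and Izumo1r, the folate receptor 4 surface protein of Treg, are neighbours, and their members (chr9:14661346-14684612 and chr9:14690722-14708047) each covered the gene with its promoter. The Gpr83 member stood at 220 and 211 CPM in RA+VitC iTreg, 107 and 104 CPM in TGFβ iTreg, 107 and 112 CPM in Treg and 80.9 and 77.7 CPM in naive cells. The Izumo1r member stood at 178 and 166 CPM in RA+VitC iTreg, 83.7 and 86.6 CPM in TGFβ iTreg, 96.3 and 87.9 CPM in Treg and 81.3 and 82.2 CPM in naive cells. At both genes the RA+VitC libraries stood above every other library, and Treg was higher than naive cells (log2 0.47, adjusted p = 4.3e-12, and log2 0.17, adjusted p = 0.037; edgeR). The Popdc2 member had 109 and 111 CPM in RA+VitC iTreg, 53.4 and 52.5 CPM in TGFβ iTreg, 21.1 and 22.8 CPM in Treg and 7.72 and 8.22 CPM in naive cells. Zbtb18, a zinc finger repressor, had 142 and 146 CPM in RA+VitC iTreg, 63.7 and 62.4 CPM in TGFβ iTreg, 48.4 and 53.8 CPM in Treg and 35.1 and 30.8 CPM in naive cells. At Popdc2 and Zbtb18 the groups ran in this order with no overlap. Of 120 genes with a promoter under a member, 92 matched the promoter table with 142 windows. AGGTCA or TGACCT was present in 21 of these windows (14.8%), in 13.8% of the windows of all regions at or above the minimum level, in 13.2% of those of all regions and in 16.3% of all windows of the table. The median number of CG dinucleotides per window was 17 for the members, 19 for regions at the minimum level and 19 for all regions.

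Pull-downs held 3996442 and 3828487 reads in regions in RA+VitC iTreg and 1648804 and 2114056 in TGFβ iTreg, against 7664194 to 9731897 in the sorted cells, and inputs held 1028822 to 1563165. A count of 3 reads, which is the upper 95% limit of a count of 0, was worth 0.751 and 0.784 CPM in RA+VitC iTreg, 1.82 and 1.42 CPM in TGFβ iTreg and 0.308 to 0.391 CPM in the sorted cells, for counting error only. Pull-downs had 3.88 and 3.14 times the reads of their inputs with RA and VitC, against 1.49 and 1.72 times with TGFβ alone. The most-read 10% of regions held 61.2% and 60.4% of reads with RA and VitC, against 55.3% and 57.3% with TGFβ alone. CPM are relative within a library, and the part of these differences in the members' levels was not tested. With library sizes scaled by TMM, edgeR's factor that sets the bulk of regions level between libraries, the rule took 2028 regions, and the mirror rule 731, against 940 and 1261 on plain CPM, so RA+VitC iTreg held 73.5% and not 42.7% of the regions chosen either way. Over all 177720 regions the median log2 ratio of RA+VitC to TGFβ iTreg (1 CPM added) was -0.12 on plain CPM and 0.01 with TMM. It was 1.14 over the members on plain CPM. All 940 also met the rule with TMM, which had to follow from the scaling. TMM factors were 0.871 and 0.889 in RA+VitC iTreg and 1.03 and 0.995 in TGFβ iTreg, which raised RA+VitC levels against TGFβ levels in every region.

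The median member had 18.3 and 17.5 CPM in the RA+VitC libraries, 7.28 and 7.57 CPM in the TGFβ libraries, 7.96 and 8.15 CPM in the Treg libraries and 6.17 and 6.27 CPM in the naive libraries. Members took 3.28% and 3.09% of the reads of RA+VitC pull-downs, against 1.32% and 1.33% of those of TGFβ iTreg, 1.39% and 1.41% of those of Treg, and 1.10% and 1.11% of those of naive cells. Inputs had 1.21% to 1.25% of their reads in members. The TGFβ and sorted pull-downs thus lay near the share of the inputs, and the RA+VitC pull-downs above it. The ratio of the RA+VitC to the TGFβ mean had a median of 2.33 (quartiles 2.13 and 2.73, up to 6.28), with 585 members under 2.5, 150 at 3 or more and 38 at 4 or more. Most members were of modest height: 529 lay under 20 CPM with RA and VitC, and 44 at 100 CPM or more. The median member rested on 140.5 reads summed over the RA+VitC libraries and 28 over the TGFβ libraries.

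**Figure D1:**
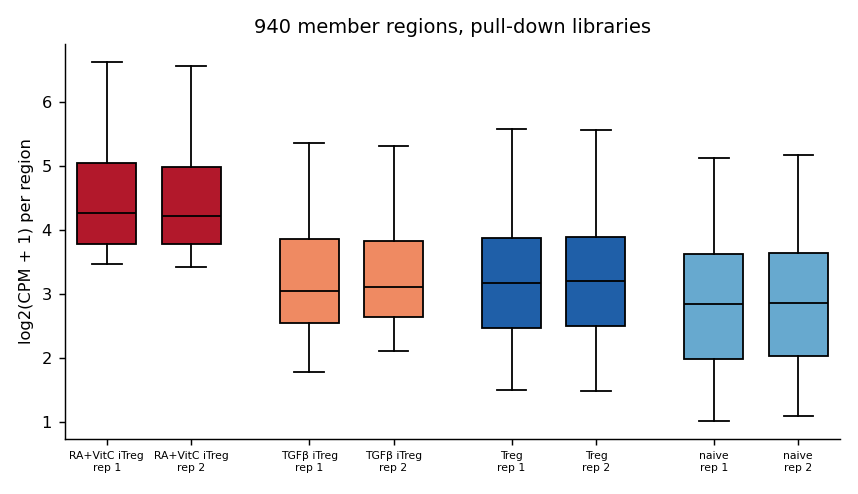
Level of the 940 member regions in each pull-down library, as log2(CPM + 1). Boxes span the quartiles with the median as a line, and whiskers the 5th to 95th percentile; the RA+VitC boxes sit above the others, as the rule requires against TGFβ iTreg, and the Treg boxes sit above the naive boxes.

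Some regions lay very close to the thresholds on either side. The ratios just inside the rule were 2.00013 at Prkch, 2.00175 at Tasp1 and 2.00194 at Neil3, and those just outside were 1.99973 at Msh6, 1.99946 at Gbp2b and 1.99939 at Lcn5. The RA+VitC means just inside the minimum level were 10.0057 CPM at Ipo11 and 10.0649 CPM at Runx2 and Pfkfb3, against 9.98 CPM at Gfod1 and Spats2 just outside. A single region met both thresholds and failed the order of the replicates.

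The rule used both replicates of both cultures, so no library was left to read the 940 members in. A reading added after the data were seen chose new sets of regions instead. When the thresholds were applied to 1 pair of same-tagged RA+VitC and TGFβ libraries, 1541 regions were chosen, and in the other pair their median ratio was 1.69, against 1.07 over all 20375 regions at the minimum level (0.5 CPM added). In that other pair 92.2% of the chosen regions were higher with RA and VitC, against 57.9% of all, and 34.5% were at 2 times or more, against 5.50%. In the reverse reading 1214 regions were chosen, with a median ratio of 1.77 in the pair not used, against 1.08 over all 20309, 91.5% higher against 59.3%, and 41.4% at 2 times or more against 6.50%. In the pair that chose them the median ratios were 2.31 and 2.29. These sets are not the members, and the values are a description of how far a choice on 1 pair was repeated in the other. Whether the tags mark separate mice or cultures is not stated. A technical difference between the cultures' libraries that both pairs share would be repeated as well, and was not tested.

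The inputs served as background. Of the members, 493 had a mean of at least 10 input reads and were tested between RA+VitC and TGFβ inputs, and 0 passed the adjusted threshold in edgeR or in DESeq2. The background was 0% of 28279 regions in edgeR. At an unadjusted p under 0.05, edgeR had 24 members (4.87%), against 4.95% of all tested regions. The median input level of members was 9.04 CPM for RA+VitC iTreg and 8.89 CPM for TGFβ iTreg.

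The sorted cells were not used by the rule, and Treg against naive cells was tested in those 4 libraries alone. Of 916 members with a mean of at least 10 reads there, 358 (39.1%) were higher in Treg and 51 (5.57%) lower at an adjusted p under 0.05. Over all 132664 tested regions the shares were 13.4% higher and 10.3% lower, and over the 20060 tested regions at the minimum RA+VitC level they were 24.2% and 19.8%. The 1149 tested regions of the mirror rule split evenly, with 23.1% higher and 23.1% lower. The median log2 fold change of Treg over naive was 0.33 in the members, 0.01 at the minimum level and -0.01 in the mirror set, and it was above 0 in 74.9%, 51.5% and 49.4% of them. Among the members, calls higher in Treg thus outnumbered lower ones, with a small median difference. In DESeq2, 180 of 910 tested members were higher and 11 lower, against 5626 and 2747 of all 124947 tested regions. With 1 Treg or naive library left out, the median log2 fold change of the members in edgeR was 0.33 to 0.36.

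**Figure D2:**
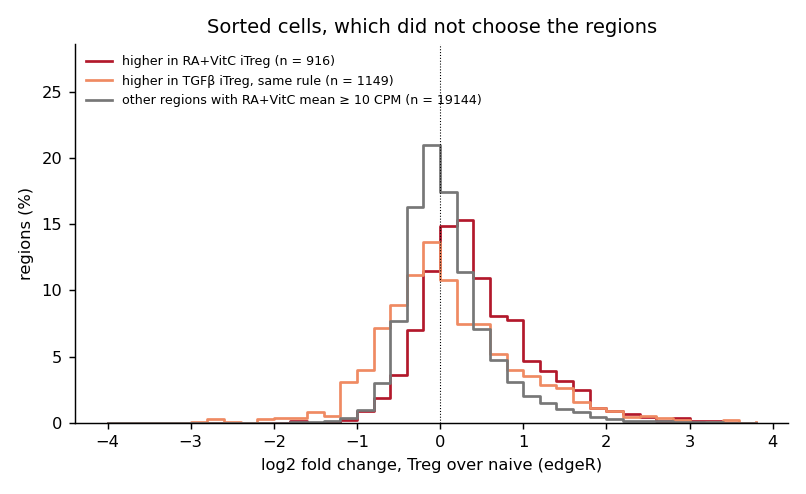
Distribution of the log2 fold change of Treg over naive cells (edgeR, 4 sorted libraries) as the share of tested regions per bin of 0.2, values beyond the axis placed in the end bins. The members are shifted to the right of 0 (median 0.33), and regions of the mirror rule and other regions with an RA+VitC mean of at least 10 CPM centre near 0.

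Set beside both sorted groups, RA+VitC iTreg had the highest mean in 903 of the 940 members. The rule favoured this, since it required a high RA+VitC level, and shares of these orders over other regions were not counted. The most frequent order was RA+VitC iTreg, TGFβ iTreg, Treg, naive cells (331 members), followed by RA+VitC iTreg, Treg, TGFβ iTreg, naive cells (187). RA+VitC iTreg lay above both naive cells and Treg by the margin of the rule in 552 members (58.7%, against 16.2% of regions at the minimum level). TGFβ iTreg lay above naive cells by the same margin in 289 members (30.7%, against 20.7%). In these 289 members the signal was at least 2 times the naive level with TGFβ alone and higher again with RA and VitC. These counts share libraries with the rule and were not tested.

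A sorted group stood above TGFβ iTreg by the margin in few members. Treg did so in 82 (8.72%, against 2.99% of regions at the minimum level) and naive cells in 45 (4.79%, against 3.58%). Neither did in 843 members (89.7%, against 94.6%). Both did in 30, Treg alone in 52 and naive cells alone in 15. The rule chose members for a TGFβ level that was low against RA+VitC, which favoured these counts, and they were not tested. With TGFβ replicate 2 left out, the share with naive cells above was 8.83% and that with Treg above 11.5%. Naive cells or Treg were above RA+VitC iTreg by the margin in 0 members. At the minimum level, where the rule did not choose, naive cells were so in 4.36% of regions and Treg in 2.82%.

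The strongest members were wide regions over or beside genes. The highest, 54799 bp long (chr6:31020440-31075238), was intergenic beside Mir29b-1, a microRNA of a family that targets DNA methyltransferase transcripts. It had 1028 and 895 CPM in RA+VitC iTreg, 413 and 454 CPM in TGFβ iTreg, 318 and 326 CPM in Treg and 238 and 257 CPM in naive cells, and Treg was higher than naive by 0.38 (log2, SE 0.04, adjusted p = 2.6e-15). The Trpc4ap member (chr2:155498063-155517100) had 551 and 500 CPM in RA+VitC iTreg, 181 and 191 CPM in TGFβ iTreg, 161 and 175 CPM in Treg and 142 and 146 CPM in naive cells. In both regions the RA+VitC libraries were at least 1.5 times every other library.

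Of the 6 members ranked highest by ratio (1 CPM added to both means), 5 had RA+VitC means under 30 CPM. The other, an intronic Lamc1 region (chr1:155175189-155178986), had 60.1 and 49.6 CPM in RA+VitC iTreg, 13.3 and 10.9 CPM in TGFβ iTreg, 11.2 and 14.4 CPM in Treg and 4.76 and 5.96 CPM in naive cells. The Mbip member (chr12:57408777-57409947, intergenic) had 15.3 and 17.0 CPM in RA+VitC iTreg, 1.82 and 3.31 CPM in TGFβ iTreg, 0.522 and 0.839 CPM in Treg and 0.386 and 0.411 CPM in naive cells. The TGFβ values rest on 3 and 7 reads, and the region had too few reads in sorted cells to be tested. The Fryl member, over its promoter (chr5:73464845-73466207), had 25.8 and 22.7 CPM in RA+VitC iTreg, 4.85 and 4.26 CPM in TGFβ iTreg, 6.78 and 5.87 CPM in Treg and 3.60 and 4.32 CPM in naive cells. H19, an imprinted long non-coding RNA, had 2 members. The one over the gene (chr7:149760511-149764770) had 28.3 and 30.6 CPM in RA+VitC iTreg, 3.64 and 8.04 CPM in TGFβ iTreg, 2.74 and 1.20 CPM in Treg and 1.42 and 2.26 CPM in naive cells, so both cultures stood above both sorted groups. An intronic member of Ldah had a ratio of 4.94, and an intergenic region without a gene symbol (chr16:93180404-93180969) one of 6.22, on 11.5 and 8.62 CPM in RA+VitC iTreg and 1.82 and 1.42 CPM in TGFβ iTreg.

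Of 25 genes listed for their part in RA signalling and response, 21 had a region and 5 had a member: Nrip1, Itga4, Dhrs3, Ccr9 and Rxra. Members made up 9 of the 43 regions of these genes at the minimum level (20.9%), against 4.65% over all regions with a symbol, and 3 regions of the list met the mirror rule. Of the 9, 5 belonged to Nrip1, and without Nrip1 the count was 4 of 32. The median log2 ratio of RA+VitC to TGFβ iTreg over the 43 regions was 0.44, against 0.12 over all.

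Nrip1, a corepressor that binds ligand-bound nuclear receptors, had the member with the second highest level, over its 5′ UTR, an exon and an intron (chr16:76325096-76371226). It had 875 and 806 CPM in RA+VitC iTreg, 279 and 251 CPM in TGFβ iTreg, 440 and 456 CPM in Treg and 389 and 391 CPM in naive cells, a ratio of 3.17 between the cultures. TGFβ iTreg was the lowest group and RA+VitC iTreg the highest, with the sorted cells between them. Inputs of the region did not separate the cultures, at 199 and 167 CPM for RA+VitC iTreg and 186 and 155 CPM for TGFβ iTreg. The other 4 Nrip1 members had ratios of 2.02 to 2.45. The second in level, at chr16:76215319-76243245, had 305 and 302 CPM in RA+VitC iTreg, 137 and 122 CPM in TGFβ iTreg, 115 and 111 CPM in Treg and 84.6 and 89.4 CPM in naive cells. RA+VitC iTreg was the highest group at each of the 5, and 3 of the 5 were higher in Treg than in naive cells (log2 0.20 to 0.38). Summed over all 57 regions assigned to Nrip1, the level was 1951 and 1835 CPM in RA+VitC iTreg, 907 and 834 CPM in TGFβ iTreg, 1200 and 1220 CPM in Treg and 1020 and 1043 CPM in naive cells. This sum includes the 5 members, which were chosen for a higher RA+VitC level.

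**Figure D3:**
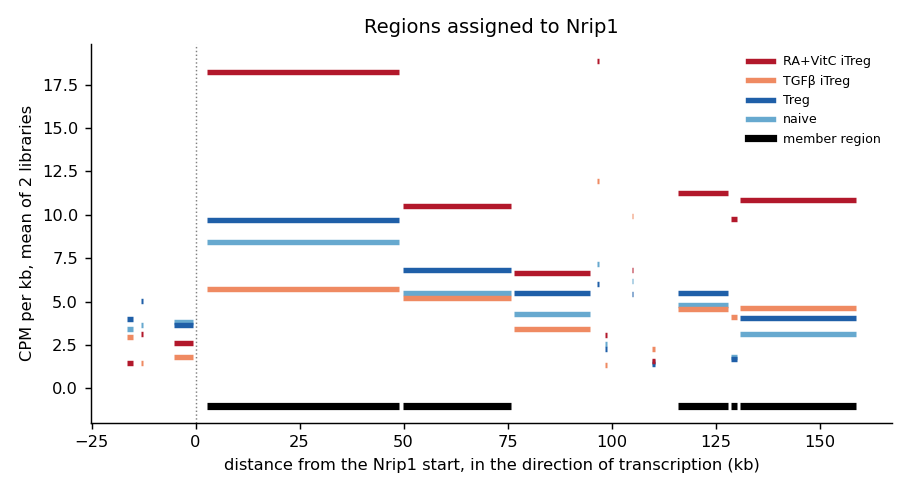
Regions assigned to Nrip1 along the gene, as the group mean of 2 libraries in CPM per kb of region against the distance from the most upstream annotated start in the direction of transcription (kb). Black bars below 0 mark the 5 members; the RA+VitC line is the highest over each of them.

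The other genes of the RA list had 1 member each. Itga4, the α4 chain of the gut-homing integrin, had 124 and 119 CPM in RA+VitC iTreg, 53.4 and 47.8 CPM in TGFβ iTreg, 56.4 and 54.0 CPM in Treg and 57.6 and 57.1 CPM in naive cells (chr2:79102381-79113518). Only the RA+VitC libraries stood apart there, and Treg against naive did not pass the test (log2 -0.06, adjusted p = 0.65). Dhrs3, which reduces retinaldehyde and so limits RA synthesis, had an intronic member (chr4:144484369-144497502) with 61.3 and 57.2 CPM in RA+VitC iTreg, 20.0 and 37.8 CPM in TGFβ iTreg, 46.6 and 46.8 CPM in Treg and 33.8 and 34.8 CPM in naive cells. The TGFβ replicates differed widely there, and Treg was higher than naive cells (log2 0.44, adjusted p = 9.2e-06). The Ccr9 member, at the chemokine receptor that guides T cells to the small intestine, was low: 14.3 and 11.5 CPM in RA+VitC iTreg, 6.67 and 5.68 CPM in TGFβ iTreg, 5.48 and 6.35 CPM in Treg and 4.50 and 4.01 CPM in naive cells. At the promoter of Rxra, an RXR gene, RA+VitC iTreg had 10.3 and 12.3 CPM, TGFβ iTreg 3.64 and 7.10 CPM, Treg 11.9 and 14.3 CPM and naive cells 12.6 and 12.3 CPM, so that TGFβ iTreg was the lowest group. Rara, the main RAR gene of T cells, had 4 regions at the minimum level and 0 members, with summed levels of 199 and 197 CPM in RA+VitC iTreg and 182 and 213 CPM in TGFβ iTreg.

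Of the 6 members assigned to Exoc6b, 4 had Cyp26b1, which degrades RA, as the nearest start, a link singled out after the values were seen. Their distances to it were -16438 to -61588 bp, upstream of the gene, with RA+VitC means of 13.3, 13.4, 16.9 and 17.7 CPM, against TGFβ means of 3.78, 3.24, 3.64 and 6.92 CPM. No other library exceeded 8.99 CPM at them, and 1 of the 4 (chr6:84565663-84566845) was lower in Treg, at 2.35 and 2.76 CPM, than in naive cells, at 4.25 and 5.34 CPM (log2 -0.92, adjusted p = 0.0076). Of the 3 regions assigned to Cyp26b1 itself, 0 reached the minimum level and 0 were members. These 3 summed to 10.3 and 6.79 CPM in RA+VitC iTreg and 4.85 and 2.37 CPM in TGFβ iTreg.

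On the gut homing list, 3 of the 11 genes with a region had a member (Itga4, Ccr9 and Ccr6), 3 of 52 regions at the minimum level (5.77%, against 4.65% over all regions with a symbol), and 5 regions of the list met the mirror rule. Ccr6, a chemokine receptor of Th17 cells and some Treg, had 11.5 and 13.1 CPM in RA+VitC iTreg, 4.85 and 2.84 CPM in TGFβ iTreg, 3.39 and 2.16 CPM in Treg and 1.42 and 1.23 CPM in naive cells. It was the only member among 54 regions of the Th17 list at that level (1.85%), and 3 regions of that list met the mirror rule.

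Of the Treg signature, 7 of 32 genes had a member (Il2ra, Gpr83, Izumo1r, Nt5e, Foxp3, Nrp1 and Ikzf2), with 13 of 150 regions at the minimum level (8.67%), and 11 regions of the list met the mirror rule. In Treg against naive cells, 8 of the 13 members were higher and 0 lower, against 39.1% and 5.57% of all tested members. The list is of Treg genes, and the shares over its other regions were not counted. Il2ra, which encodes CD25, had a member over exons, introns and the 3′ UTR (chr2:11597273-11619124) with 226 and 211 CPM in RA+VitC iTreg, 98.3 and 117 CPM in TGFβ iTreg, 100 and 97.8 CPM in Treg and 17.2 and 16.6 CPM in naive cells. Naive cells were low and RA+VitC iTreg high, with Treg higher than naive cells by 2.55 (log2, SE 0.09, adjusted p = 4.7e-182), and the naive cells had been sorted as CD25-. Over all 8 Il2ra regions, of which 1 met the mirror rule, the summed level was 999.6 and 977 CPM in RA+VitC iTreg and 821 and 908 CPM in TGFβ iTreg, so the locus as a whole differed much less than the member.

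The single region assigned to Foxp3 (chrX:7163959-7172345, exons, introns and 3′ UTR) was a member. It had 38.5 and 37.4 CPM in RA+VitC iTreg, 14.6 and 19.4 CPM in TGFβ iTreg, 35.5 and 39.9 CPM in Treg and 14.4 and 17.0 CPM in naive cells. RA+VitC iTreg and Treg overlapped, and TGFβ iTreg overlapped naive cells. Treg was higher than naive cells by 1.26 (log2, SE 0.11, adjusted p = 4.1e-28). The region assigned to Flicr, a long non-coding RNA next to Foxp3 (chrX:7152321-7155923), had 34.0 and 26.9 CPM in RA+VitC iTreg, 13.3 and 15.6 CPM in TGFβ iTreg, 8.48 and 7.91 CPM in Treg and 5.66 and 7.60 CPM in naive cells, with both sorted groups below both cultures.

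Nt5e, the CD73 enzyme that makes adenosine, had 54.5 and 58.2 CPM in RA+VitC iTreg, 28.5 and 24.6 CPM in TGFβ iTreg, 42.9 and 40.4 CPM in Treg and 18.9 and 20.9 CPM in naive cells. Its Treg level was higher than the naive level by 1.06 (log2, adjusted p = 3.8e-23). Nrp1, a surface receptor of thymus-derived Treg, had 4 members, of which the highest (chr8:131081763-131085257, intergenic) had 26.8 and 22.5 CPM in RA+VitC iTreg, 13.9 and 9.93 CPM in TGFβ iTreg, 9.26 and 7.55 CPM in Treg and 2.06 and 1.95 CPM in naive cells. The Ikzf2 member, at the gene of the Treg factor Helios, averaged 21.5 CPM in RA+VitC iTreg, 9.58 CPM in TGFβ iTreg, 16.3 CPM in Treg and 4.22 CPM in naive cells. This Nrp1 region and the Ikzf2 member were higher in Treg than in naive cells (log2 2.06 and 1.94). Of the 4 Nrp1 members, 1 passed this test.

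**Figure D4:**
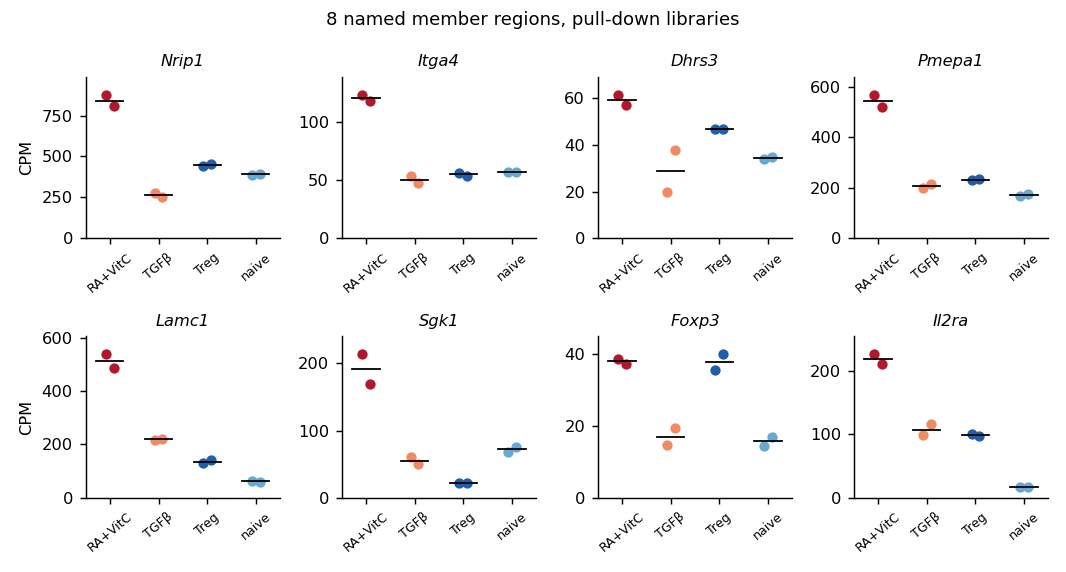
CPM of 8 named members in each pull-down library (points) with the group mean (line), for RA+VitC iTreg, TGFβ iTreg, Treg and naive cells. RA+VitC iTreg is above TGFβ iTreg in each panel; Treg meets RA+VitC iTreg at Foxp3, and naive cells are above Treg at Sgk1.

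Of the 30 TGFβ pathway genes, all with a region, 5 had a member (5 of 123 regions at the minimum level, 4.07%, near the 4.65% of all regions with a symbol), and 5 regions of the list met the mirror rule. Pmepa1, a TGFβ-induced inhibitor of Smad signalling, was among the strongest members, with 567 and 518 CPM in RA+VitC iTreg, 200 and 215 CPM in TGFβ iTreg, 230 and 234 CPM in Treg and 169 and 176 CPM in naive cells (chr2:173055657-173100387). RA+VitC iTreg stood far above the rest, and Treg was higher than naive cells by 0.43 (log2, adjusted p = 2.6e-16). The other 4 (Itgav, Ski, Eng and Id2) had RA+VitC means under 15 CPM, and the Id2 member was intergenic, at a distance of -154871 bp to the Id2 start. At Ski, a corepressor of Smads, both sorted groups stood above TGFβ iTreg by the margin, at 14.5 and 14.6 CPM in Treg and 15.6 and 16.5 CPM in naive cells, against 8.49 and 4.26 CPM in TGFβ iTreg. RA+VitC iTreg, at 12.3 and 13.3 CPM, lay below the sorted cells there.

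The T cell activation list had members at 4 of 33 genes (5 of 134 regions at the minimum level, 3.73%, against 4.65% over all regions with a symbol): Il2ra, Nfatc1, Irf8 and Cd69. Mirror-rule regions of this list numbered 9. Irf8, an interferon regulatory factor, had 112 and 109 CPM in RA+VitC iTreg, 49.7 and 45.4 CPM in TGFβ iTreg, 36.9 and 31.3 CPM in Treg and 18.9 and 17.8 CPM in naive cells. Of the naive T cell list, Treml2 and Foxp1, a quiescence factor, had 6 members among 219 regions (2.74%), and 5 regions of the list met the mirror rule. The Foxp1 member of highest level had 79.8 and 73.7 CPM in RA+VitC iTreg, 37.0 and 35.0 CPM in TGFβ iTreg, 46.7 and 44.4 CPM in Treg and 56.9 and 58.9 CPM in naive cells, and Treg was lower than naive cells (log2 -0.35, adjusted p = 0.00016). TET enzymes, DNA methyltransferases and related genes had 1 member among 52 regions (1.92%) and 6 regions that met the mirror rule. The member was an intergenic region beside Gadd45g, a gene linked to DNA demethylation, with 18.8 and 20.1 CPM in RA+VitC iTreg and 6.07 and 10.4 CPM in TGFβ iTreg. The Th1 and Th2 lists had 0 members among 54 and 23 regions at the minimum level, while 9 and 2 of their regions met the mirror rule.

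Lists of other cell types the cultures or sorts could hold had 0 members. B cell genes had 5, myeloid and dendritic cell genes 6, and CD8 and NK cell genes 6 regions at the minimum level. Summed over all regions of the 14 B cell genes, the level was 220 and 226 CPM in RA+VitC iTreg, 229 and 259 CPM in TGFβ iTreg, and 249 to 288 CPM in the sorted cells. The 14 myeloid genes with a region summed to 320 and 366 CPM in RA+VitC iTreg, 494 and 497 CPM in TGFβ iTreg and 404 to 515 CPM in the sorted cells. The 10 CD8 and NK genes summed to 255 and 271 CPM in RA+VitC iTreg, 326 and 317 CPM in TGFβ iTreg and 437 to 521 CPM in the sorted cells. Of the B cell and of the myeloid genes, 1 each had 0 reads in a library. All 3 lists were lowest with RA and VitC, and their part in the members' levels was not tested.

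Some genes had several members. The 868 members with a symbol belonged to 625 genes, of which 489 had 1 member and 22 had 4 or more. Another member lay within 50 kb of 403 members (42.9%), against 27.3% in the mirror set. This share was not counted over regions at the minimum level. The genes with most members were Prickle1, a planar polarity gene, with 11 of its 33 regions at the minimum level, and Cwc27, a spliceosome-associated gene, with 8 of 18. Ldlrad4, a negative regulator of TGFβ signalling, had 8 of 29, and Lamc1, Peli2, Prkca, Sgk1 and Stim2 had 7 each. The Prickle1 member of highest level was intergenic, at a distance of -252733 bp to the Prickle1 start. That of Cwc27 was also intergenic, at -71512 bp to the nearest start. At Cwc27 all 8 members were higher in Treg than in naive cells, and at Lamc1 and Prkca all 7 were. At Ldlrad4, 7 of 8 were higher, at Stim2 6 of 7 and at Peli2 5 of 7, with 0 lower. At Prickle1, 4 of 11 were higher and 1 was lower, and at Sgk1 0 of 7 were higher and 5 lower. Over all tested regions at the minimum level 24.2% were higher and 19.8% lower. Regions of the same gene may not be independent of each other.

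Lamc1, the laminin γ1 chain, carried 7 members downstream of its start. The longest (chr1:155144590-155171287) had 537 and 487 CPM in RA+VitC iTreg, 218 and 219 CPM in TGFβ iTreg, 129 and 141 CPM in Treg and 63.2 and 60.3 CPM in naive cells. The groups were ordered without overlap, and Treg was higher than naive cells by 1.13 (log2, SE 0.06, adjusted p = 1.1e-68). Over all 31 Lamc1 regions the summed level was 912 and 862 CPM in RA+VitC iTreg, 365 and 362 CPM in TGFβ iTreg, 308 and 327 CPM in Treg and 129 and 127 CPM in naive cells, a sum that includes the 7 members. Prkca, protein kinase Cα, had its highest member in an intron, with 479 and 443 CPM in RA+VitC iTreg, 207 and 232 CPM in TGFβ iTreg, 237 and 237 CPM in Treg and 137 and 133 CPM in naive cells. Stim2, a calcium sensor of the endoplasmic reticulum, had 210 and 181 CPM in RA+VitC iTreg, 104 and 83.7 CPM in TGFβ iTreg, 68.0 and 69.1 CPM in Treg and 41.5 and 42.0 CPM in naive cells. At both, naive cells were the lowest group.

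The members with the largest difference between Treg and naive cells were mostly intronic and low in naive cells. The highest was a Cwc27 region (chr13:105505670-105506968) with 23.0 and 22.5 CPM in RA+VitC iTreg, 4.85 and 4.73 CPM in TGFβ iTreg, 6.52 and 6.23 CPM in Treg and 0.643 and 0.617 CPM in naive cells, a log2 fold change of Treg over naive of 3.31 (SE 0.36, adjusted p = 8.6e-18). A Prr5l member, at a gene of an mTORC2-binding protein (chr2:101660741-101666163), had 21.5 and 22.7 CPM in RA+VitC iTreg, 10.9 and 9.46 CPM in TGFβ iTreg, 25.7 and 23.7 CPM in Treg and 2.57 and 3.90 CPM in naive cells, a fold change of 2.89 (log2, SE 0.17, adjusted p = 1.6e-59). Treg was the highest group at Prr5l, just above RA+VitC iTreg, whereas RA+VitC iTreg was the highest at Cwc27. Akap6, an anchor of protein kinase A, had overlapping RA+VitC and Treg levels, with 14.0 and 15.9 CPM in RA+VitC iTreg, 4.85 and 6.15 CPM in TGFβ iTreg, 15.1 and 12.2 CPM in Treg and 1.67 and 1.54 CPM in naive cells. Ext2, a heparan sulfate synthesis gene, and Ube2e3, a ubiquitin-conjugating enzyme gene, followed with 2.67 and 2.56 on the log2 scale.

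Sgk1, a kinase that promotes Th17 cells and restrains Treg, stood at the other end. Its strongest member (chr10:21715239-21721225, exons, introns and 3′ UTR) had 213 and 169 CPM in RA+VitC iTreg, 60.0 and 50.1 CPM in TGFβ iTreg, 21.9 and 21.3 CPM in Treg and 68.4 and 75.4 CPM in naive cells. Treg was the lowest group, lower than naive cells by 1.74 on the log2 scale (log2 -1.74, SE 0.09, adjusted p = 7.3e-81). Runx1, a transcription factor that binds Foxp3, had 4 members of which 3 were lower in Treg. The one with the largest ratio, 3.58 (chr16:92682382-92696710), had 147 and 136 CPM in RA+VitC iTreg, 41.2 and 37.8 CPM in TGFβ iTreg, 56.8 and 57.5 CPM in Treg and 63.4 and 70.5 CPM in naive cells, and Runx1 was named after its values were seen. The other members with the lowest fold changes were assigned to Trps1 (log2 -1.18), Id2 (-0.997), Tspan9 (-0.98), Rab20 (-0.93) and Exoc6b (-0.92), each under 30 CPM in every library. These 5 lost the call in at least 1 alternative fit, for example Id2 without Treg replicate 2 (log2 -0.61). The Trps1 and Id2 regions were intergenic, with distances to the start of the gene of -379347 and -154871 bp.

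The members with the highest naive level relative to RA+VitC iTreg were intronic regions of Tacc2, Wdr89 and Ldb1, the last a partner of LIM domain factors. At Ldb1 RA+VitC iTreg had 10.8 and 11.5 CPM, TGFβ iTreg 3.64 and 7.10 CPM, Treg 11.1 and 11.5 CPM and naive cells 15.7 and 14.7 CPM. At all 3 both sorted groups stood above TGFβ iTreg by the margin of the rule.

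Of the 940 members, 598 (63.6%) overlapped a transcript. A member overlapped a promoter in 113 cases (12.0%), a 5′ UTR in 72 (7.66%), an exon in 228 (24.3%), introns alone in 348 (37.0%), a 3′ UTR in 61 (6.49%) and no gene part in 303 (32.2%). Over the regions at the minimum RA+VitC level the shares were 16.2% for promoters, 12.3% for 5′ UTRs, 36.2% for exons, 30.9% for introns alone, 12.8% for 3′ UTRs and 26.3% for no gene part. Over the mirror set, 7.06% overlapped a promoter and 46.6% no gene part. These shares are a description and were not tested. The median distance to the nearest start was 14.4 kb for members, against 22.8 kb in the mirror set, 10.3 kb at the minimum level and 16.2 kb over all regions. Members were 408 to 54799 bp wide, with a median of 2495 bp, against 2057 bp in the mirror set, 4381 bp at the minimum level and 745 bp over all, and wide regions overlap more gene parts. Treg was higher than naive cells in 38 and lower in 4 of the 113 promoter members. Of 341 tested intron-only members it was higher in 147 and lower in 18, and of 287 tested intergenic members in 107 and 20. Over all parts together, 24.2% of tested regions at the minimum level were higher and 19.8% lower, and shares per part were not counted.

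**Figure D5:**
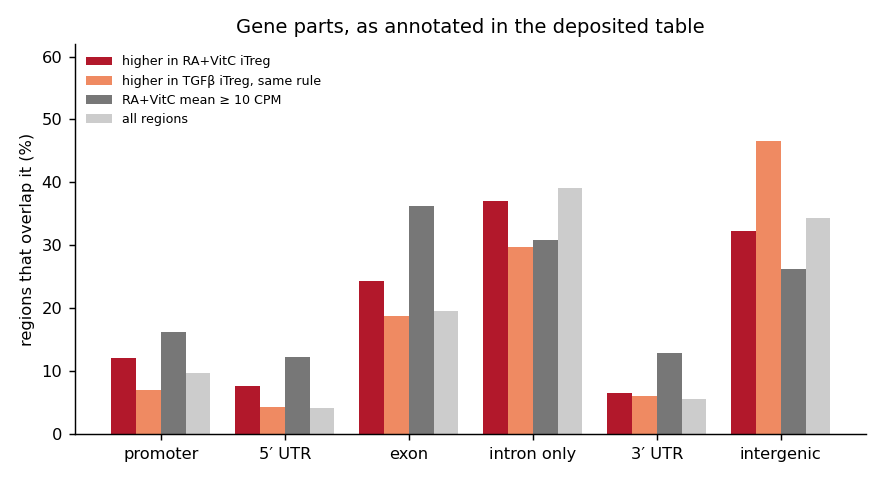
Share of regions that overlap each gene part (%), for the members, the regions chosen by the mirror rule, all regions with an RA+VitC mean of at least 10 CPM and all regions; a region can overlap several parts. Exons stand at 24.3% of members and 36.2% of regions at that level, introns alone at 37.0% and 30.9%, and intergenic regions at 32.2% of members and 46.6% of the mirror set.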

How the data were processed

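Deposited were whole-number counts of reads per library in 177720 regions on mm9, with region widths and distances in base pairs. They are a union of broad MACS2 peaks, per the file headers. The tools named are MACS2 2.1.0.20151222, SAMtools 1.7, Trim Galore 0.4.2 and bcl2fastq 2.20.0.442, per the submitters' processing notes. Not given in the sources used here are the aligner, the counter and any pooling before peaks were called.

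CPM used plain column sums over all regions. Treg against naive, and RA+VitC against TGFβ inputs, were each fitted on their own 4 libraries with edgeR 4.0.16 (R 4.3.3): TMM, regions with a mean of at least 10 reads, the quasi-likelihood F test (2 residual degrees of freedom), and Benjamini-Hochberg adjustment over all tested regions at 0.05. DESeq2 1.42.0, other filters, scalings and margins, thinning to equal depth, a replicate block and leaving out each library were the alternatives. The spread of replicate pull-downs was 1.12 to 1.23 times counting error (chi-square per region).

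The members and gene lists were chosen with earlier results of these data known. Named genes are, by a fixed rule, the 6 members with the largest ratio (1 CPM added) and the highest level, the 6 genes with most members, the 6 highest and 6 lowest in Treg against naive without overlap, up to 6 genes per list, the 3 with the highest naive level relative to RA+VitC iTreg, those nearest the thresholds, and promoters by level; 1 of the 6 members of highest level is not reported here. Ikzf2, Peli2, Flicr, Rara, Runx1 and Cyp26b1 were named outside the fixed rule. Older symbols were updated through the RefSeq gene table. The reads of the spiked amplicons were not used here, so no total amount of 5hmC is given.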

Additional observations from a re-analysis of the deposited data

How the results depend on the processing

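The number of members depended on the scaling and the margins: 2028 with TMM, 1970 with DESeq2 size factors, 2166 with a minimum of 5 CPM, 411 with 20 CPM, 3291 with a ratio of 1.5, 150 with a ratio of 3, and 510 within same-tagged pairs. Thinning to equal depth gave 1205, which held 778 of the 940 members (82.8%), and leaving out a library gave 983 to 1284. With TMM and with DESeq2 size factors all 940 members were retained, which had to follow because both scalings raised RA+VitC levels against TGFβ levels. The mirror rule took 731 regions with TMM and 733 with DESeq2 size factors. Of the members, 358 were higher in Treg and 51 lower. DESeq2 called 180 and 11, and leaving out a library 206 to 281 higher and 12 to 38 lower. With a replicate block on the labels' numbers the counts were 357 and 51; these numbers did not pair the libraries (correlation of same-numbered deviations 0.01). Other alternatives gave 334 to 361 higher and 51 lower. The inputs gave 0 calls in each alternative run, with 18 to 43 members at an unadjusted p under 0.05 in edgeR and 0 in DESeq2. The share of members with naive cells above TGFβ iTreg was 3.72% with TMM, 25.3% with no minimum ratio and 4.79% to 8.83% without a library, and that with Treg above was 6.91%, 38.9% and 8.40% to 11.5%. Only 31 members were as narrow as the median region, too few to read gene parts from. Of 120 alternative values of the 12 members named from Treg against naive, 105 kept their call, 15 lost it and 0 changed sign. The causes of these differences were not tested, and the depth of the TGFβ libraries limits every ratio, the lowest member resting on 6 TGFβ reads.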
